A study of Homo sapiens with 6 samples.

Results

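The genes described here are those of STAT3 and STAT5 signalling and of the feedback that it switches on: the transcription factors STAT3, STAT5A and STAT5B, the inhibitors CISH, SOCS1, SOCS2 and SOCS3, and the kinases PIM1, PIM2 and PIM3. These 10 genes were chosen by name, with earlier results of these data known, and all 10 were found among the 17499 genes of the deposited table. The cells were HL60, an established human promyelocytic leukemia line that grows in suspension and serves as a model of neutrophil precursors. The akirin2 KO cells (libraries KO1 to KO3) had received a guide RNA against AKIRIN2, a nuclear cofactor of transcription, in complex with Cas9 nuclease, and the WT cells (libraries WT1 to WT3) had received the nuclease without a guide. The edited cells were used as a pool without isolation of clones, so that the KO libraries also hold RNA of cells that kept the protein, and both groups were grown in the same medium with fetal bovine serum and no added cytokine is stated. The 3 libraries of a group are called biological replicates, and as no source says whether they were grown apart from each other, a p-value here sets a difference against the spread of these libraries, which may be technical.

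In this pathway a cytokine brings its receptor chains together, and the JAK kinases bound to them phosphorylate the STAT proteins, which pair, enter the nucleus and bind DNA at elements of the form TTCNNNGAA. In myeloid cells STAT3 acts downstream of the G-CSF, IL-6 and IL-10 receptors, and STAT5A and STAT5B act downstream of the GM-CSF, IL-3 and IL-5 receptors. Among the genes that they switch on are those of their own inhibitors, the SOCS proteins, which bind receptors or JAK kinases and mark them for destruction through a ubiquitin ligase. The PIM genes are further targets, and their serine/threonine kinases are active as soon as they are made, so that the amount of PIM protein largely sets their activity.

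CISH is the founding member of the SOCS family and in mouse a well described STAT5 target. Among the 9 genes with a promoter window, it alone held a match to the STAT element in the windows searched. The bases around its matches are printed here because they are the sequence feature in which it stood apart. RefSeq promoter windows (GRCh38.p14), each with 250 bases before and 50 after a transcript start, matched 9 of the 10 genes, in 12 windows, and not SOCS2. The CISH window (chromosome 3, 50611725 to 50612024, minus strand) held 4 matches to TTCNNNGAA, a palindrome that reads the same on both strands, and they do not overlap. They lie as a distal pair, from 241 to 222 bases upstream of the start, and a proximal pair, from 129 to 104 bases upstream. In the stretches below, read 5′ to 3′ on the strand of the gene, capitals mark the matches.
CISH distal pair, chr3:50611994-50612017: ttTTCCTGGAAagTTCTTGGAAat
CISH proximal pair, chr3:50611876-50611905: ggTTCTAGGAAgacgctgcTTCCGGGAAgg

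Of the 35116 windows of all genes, 7.66% held at least 1 match, 0.456% at least 2 and 0.0199%, which is 7 windows, at least 4. The NF-kB motif was found in 1 of the 3 STAT5A windows and in no window of the other members, and 5.91% of all windows held it. A match is a string of letters and not a measured binding site. Exons of MAPKAPK3, a kinase gene read from the opposite strand, overlap those of CISH.

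Between 36096459 and 47607520 reads were assigned to the listed genes in the KO libraries (median 43629122), and between 41419318 and 52244122 in the WT libraries (median 48747014). Values are normalized counts, that is, reads after division by the size factor of their library. Log2 fold changes are KO/WT on log2(normalized count + 1), given with their standard error (SE) and tested with limma, with p adjusted over the 17425 genes whose mean reached 10 normalized counts. This scale understates the change of low genes. A gene rose or fell where its adjusted p was under 0.05. AKIRIN2 itself had 1613, 1731 and 1651 normalized counts in KO, against 2378, 2450 and 2420 in WT (log2 fold change −0.54, adjusted p = 1.3e-08). Much of the transcriptome moved with it, since 60.6% of all genes tested were called, 30.3% as higher and 30.3% as lower in KO. Fibroblast and epithelial marker genes, which HL60 cells should lack, summed to 409 to 914 normalized counts in KO and 535 to 5822 in WT, the highest sum being that of WT1. In bulk RNA, fewer cells of a type and less RNA per cell cannot be told apart.

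Of the 10 genes, 7 fell and 1 rose in KO cells, beside the 30.3% of all genes called in each direction. The falls were those of STAT5B, CISH, SOCS1, SOCS2, SOCS3, PIM1 and PIM3, so that 6 of the 7 inhibitor and kinase genes were lower, while the log2 fold changes of the STAT factors themselves ran from −0.12 to 0.20. In the same 7 genes the 3 KO libraries lay below all 3 WT libraries, as in 32.5% of all genes, and groups without overlap in either direction made up 65.2% of all genes. A fall past 1 on the log2 scale was seen for 5 of them (SOCS1, SOCS2, SOCS3, PIM1 and PIM3) and for 8.37% of all genes, and no member rose past 1, as 6.39% of all genes did. The median log2 fold change was −0.87 over the 10 genes and −0.01 over all genes tested.

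**Figure D1:**
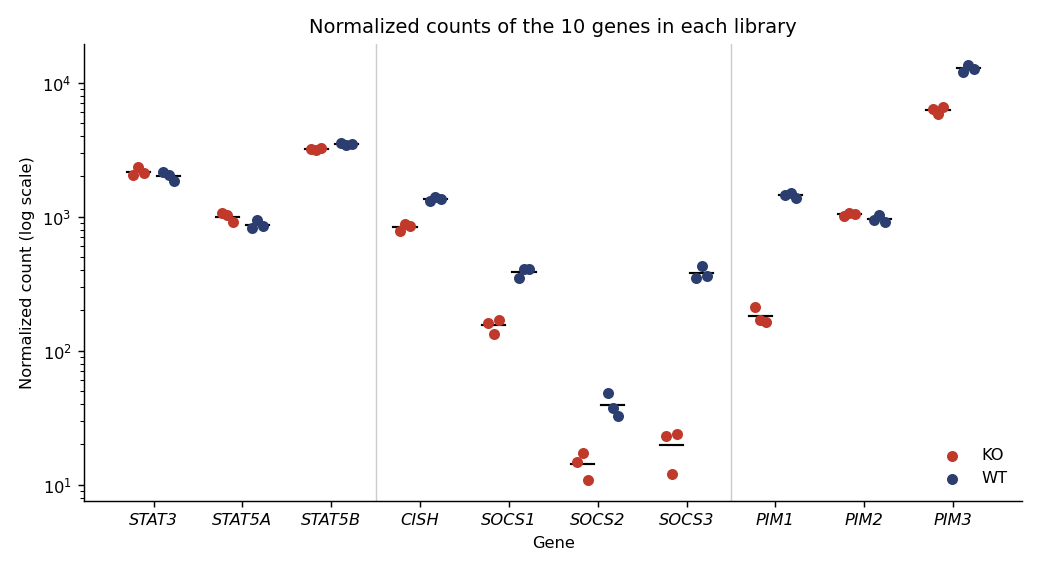
Normalized counts (log axis) of the 10 genes in each library, with KO libraries as red points left of WT libraries as blue points and a bar at each group's mean. PIM1 and SOCS3 show the widest gaps, with means of 181 in KO and 1441 in WT for PIM1, and of 19.6 in KO and 377 in WT for SOCS3, whereas the points of STAT3, STAT5A and PIM2 overlap.

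The STAT genes lie side by side on chromosome 17 (GRCh38, GENCODE 29), STAT5B from 42199168 to 42276707 and STAT3 from 42313324 to 42388568 on the minus strand, with STAT5A from 42287547 to 42311943 on the plus strand between them. STAT3, the factor that carries IL-6 and G-CSF signals, had 2035, 2344 and 2107 normalized counts in KO, against 2138, 2050 and 1855 in WT. KO2 was the highest and WT3 the lowest of these libraries, the groups overlapped, and the log2 fold change of 0.10 (SE 0.061) did not pass the test (adjusted p = 0.16). Its 95% interval ran from −0.03 to 0.23.

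STAT5A, a factor of GM-CSF and IL-3 signals that is also known for its role in the mammary gland, had 1057, 1021 and 909 normalized counts in KO and 818, 941 and 847 in WT. It rose by 0.20 (SE 0.070, adjusted p = 0.021), although KO3 lay below WT2. The call was lost without KO1, KO2, WT1 or WT3, where the adjusted p reached up to 0.12. STAT5B, its close relative with a known role in growth hormone response, had 3183, 3123 and 3274 normalized counts in KO, against 3551, 3415 and 3468 in WT, and every KO library was below every WT library. The fall was small, at −0.12 on the log2 scale (SE 0.044, adjusted p = 0.022). It was lost without KO1, KO2 or WT1, with an adjusted p of up to 0.086. The log2 ratio of STAT5A to STAT5B was −1.68 ± 0.14 (SD, n = 3) in KO and −2.00 ± 0.13 in WT. Transcripts of these neighbours share 507 stretches of 50 bases, 8.61% of those of STAT5A and 7.81% of those of STAT5B, so that how their reads were divided is uncertain to that extent.

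CISH, SOCS1, SOCS2 and SOCS3 all fell in KO. CISH (chromosome 3, 50606490 to 50611831), which binds phosphorylated receptor chains where STAT5 would dock, had 783, 873 and 854 normalized counts in KO, against 1306, 1411 and 1357 in WT. The groups were well apart, with a log2 fold change of −0.70 (SE 0.060, adjusted p = 6.6e-09), and CISH was thus the least changed of the 4 on this scale. MAPKAPK3 shares 218 exonic bases with CISH (4.26% of its exons) on the opposite strand, and whether the counting used strand is not given in the sources used here. That gene had 4696 ± 63.8 normalized counts in KO and 6153 ± 346 in WT (SD, n = 3 each), a log2 fold change of −0.39 (adjusted p = 5.6e-07), and its part in the CISH value was not tested.

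SOCS1 (chromosome 16, 11254405 to 11256200), which inhibits JAK kinases directly through its kinase inhibitory region and is best known for restraining interferon signals, had 161, 133 and 168 normalized counts in KO and 350, 409 and 406 in WT. It fell by 1.33 on the log2 scale (SE 0.11, adjusted p = 4.3e-09). SOCS2 (chromosome 12, 93569814 to 93583487), a brake on growth hormone signalling, was the least abundant of the set, with 16, 17 and 9 reads in KO, against 51, 33 and 39 in WT. In normalized counts these were 14.6, 17.1 and 10.8 in KO, against 47.9, 37.1 and 32.6 in WT, a log2 fold change of −1.41 (SE 0.32, adjusted p = 0.00074). Its 95% interval, from −2.07 to −0.75, was the widest of the 10 genes. An antisense gene, SOCS2-AS1, shares 277 exonic bases with SOCS2, and it is not listed in the table.

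SOCS3 (chromosome 17, 78356778 to 78360077), which attaches to the IL-6 and G-CSF receptors and shuts off STAT3 signals from them, changed most. It had 25, 12 and 20 reads in KO and 371, 379 and 428 in WT. The normalized counts were 22.8, 12.1 and 24.0 in KO, against 348, 426 and 358 in WT, and the WT mean was 19.2 times the KO mean. KO2 was the lowest KO library and WT2 the highest WT library, and no library lay between the groups. The log2 fold change of −4.25 (SE 0.21, adjusted p = 2.5e-12) was the 35th lowest of the 17425 genes. The KO libraries varied by 33.6% of their mean at this low count and the WT libraries by 11.2%. The log2 ratio of SOCS1 to SOCS3, in normalized counts, was 2.96 ± 0.34 in KO and 0.04 ± 0.12 in WT (SD, n = 3 each), so that these inhibitors were at nearly equal counts in WT but not in KO.

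**Figure D2:**
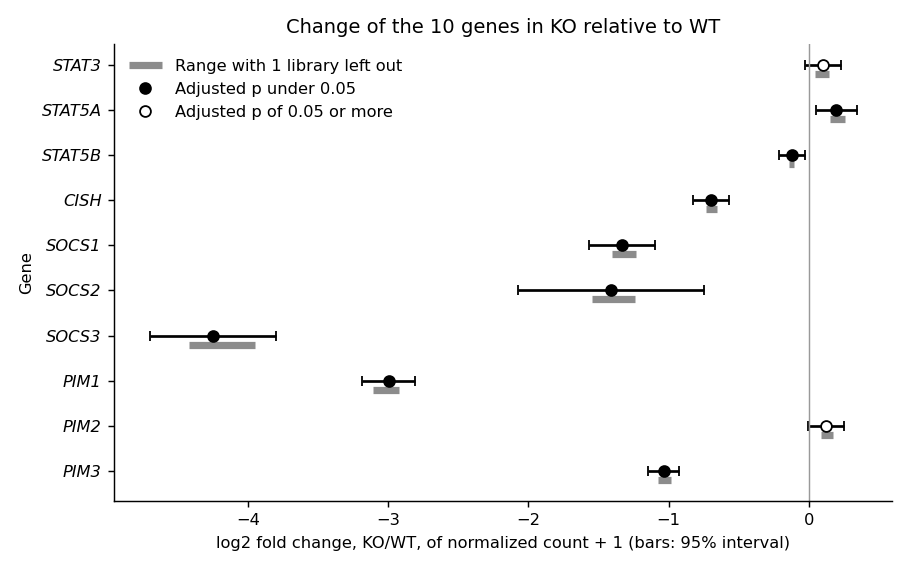
Log2 fold change (KO/WT) of normalized count + 1 for the 10 genes, with 95% intervals as thin black bars and, as grey bars, the range of the estimate when 1 library was left out. Filled points had an adjusted p under 0.05; SOCS3 at −4.25 and PIM1 at −3.00 lie farthest from 0, and leaving out 1 library moved SOCS3 between −4.42 and −3.95.

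Among the PIM kinases, PIM1 and PIM3 fell while PIM2 did not pass the test. PIM1 (chromosome 6, 37170203 to 37175426), named for a common site of retroviral insertion in mouse lymphomas, had 210, 170 and 162 normalized counts in KO, against 1449, 1507 and 1368 in WT. All KO libraries were far below all WT libraries, the WT mean was 7.98 times the KO mean, and the log2 fold change of −3.00 (SE 0.090, adjusted p = 1.2e-15) was the 120th lowest of all genes tested. PIM3 (chromosome 22, 49960513 to 49964080), the most abundant gene of the set, had 6310, 5801 and 6555 normalized counts in KO and 12070, 13577 and 12622 in WT. It fell by 1.04 (SE 0.052, adjusted p = 2.2e-12), again with no overlap of the groups. PIM2 (chromosome X, 48913182 to 48919024), which supports the survival of blood cells and promotes protein synthesis, had 1011, 1072 and 1045 normalized counts in KO, against 937, 1032 and 910 in WT. The groups overlapped through WT2, and the log2 fold change of 0.12 (SE 0.062, 95% interval −0.01 to 0.25) did not pass (adjusted p = 0.10). Without WT2 it was 0.17 and passed (adjusted p = 0.024).

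The members of a family thus moved by different amounts within the same libraries. These differences were compared directly for 6 pairs, as log2 ratios of normalized count + 1. The PIM1 to PIM2 ratio was −2.53 ± 0.23 in KO and 0.59 ± 0.04 in WT (SD, n = 3 each), a difference of −3.12, so that the order of these genes by normalized count was turned round. The PIM1 to PIM3 ratio differed by −1.96, the PIM2 to PIM3 ratio by 1.16, the SOCS1 to SOCS3 ratio by 2.92, the CISH to SOCS2 ratio by 0.71 and the STAT5A to STAT5B ratio by 0.32. In each of the 6 pairs the ratios of the KO libraries lay apart from those of the WT libraries, which gave p = 0.1 in the two-sided exact permutation test, also after adjustment over the pairs. This is the smallest p that 3 libraries against 3 allow, so none of the pairs could reach 0.05. For STAT5A to STAT5B the groups nearly touched, at −1.848 in KO3 and −1.859 in WT2. The share of other gene pairs that lie apart in this way was not computed.

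Levels were compared between the 10 genes after division by exon length. PIM3 led in both groups, with 2528 ± 156 normalized counts per kilobase in KO and 5183 ± 310 in WT (SD, n = 3 each). STAT5B was next, at 495 ± 11.8 per kilobase in KO and 539 ± 10.7 in WT. The order in KO went on with PIM2 (377), STAT3 (245), STAT5A (173), CISH (164), SOCS1 (85.7), PIM1 (60.7), SOCS3 (7.18) and SOCS2 (2.09), and among these neighbours the libraries overlapped between STAT5A and CISH. In WT the order after STAT5B was PIM1 (484), PIM2 (348), CISH (266), STAT3 (229), SOCS1 (216), STAT5A (151), SOCS3 (138) and SOCS2 (5.78), with overlap between STAT3 and SOCS1 and between STAT5A and SOCS3. PIM1 was therefore 8th of the 10 genes in KO and 3rd in WT. With the length of the longest transcript in place of all exons, the order was the same in KO and changed in WT by an exchange of STAT3 and CISH.

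Sums were taken over the genes of the set, which leave out the other STAT genes and SOCS4 to SOCS7. STAT3, STAT5A and STAT5B together had 914 ± 12.4 normalized counts per kilobase in KO and 919 ± 20.8 in WT, and their libraries overlapped. CISH, SOCS1, SOCS2 and SOCS3 summed to 259 ± 10.8 in KO and 626 ± 40.1 in WT, and the 3 PIM genes to 2966 ± 150 in KO and 6015 ± 344 in WT (SD, n = 3 each), without overlap. Within the sum of CISH and SOCS1 to SOCS3, CISH made up 63.3% ± 4.0 in KO and 42.5% ± 1.1 in WT, and SOCS3 2.76% ± 0.88 in KO and 22.0% ± 1.3 in WT. The share of SOCS1 was alike in size, at 33.1% ± 3.3 in KO and 34.5% ± 1.4 in WT. Within the PIM sum PIM3 held 85.2% ± 0.98 in KO and 86.2% ± 0.54 in WT, PIM2 12.8% ± 0.95 in KO and 5.78% ± 0.18 in WT, and PIM1 2.05% ± 0.30 in KO and 8.06% ± 0.38 in WT. The smaller PIM sum in KO was thus mostly less PIM3, and the place of PIM1 was the one that shrank most in proportion.

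**Figure D3:**
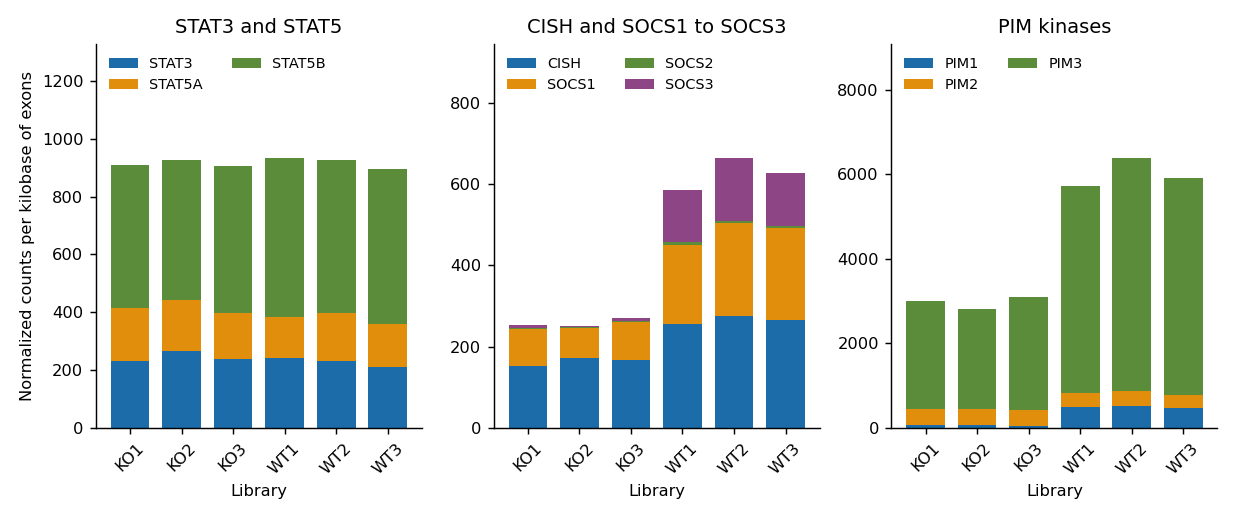
Stacked normalized counts per kilobase of exons of the set's STAT, SOCS and PIM genes in each library, KO libraries left of WT libraries, with a separate axis for each panel. The sums of STAT3, STAT5A and STAT5B average 914 in KO and 919 in WT, while the sums of CISH with SOCS1 to SOCS3 and of the PIM genes are lower in all 3 KO libraries, and the SOCS3 segment is hardly visible in KO.

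The genes around the set were described by lists of the pathway's other parts, also chosen with earlier results of these data known. Each list is read beside the 30.3% of all genes that rose and the 30.3% that fell. Of the 4 JAK kinases, 3 fell and JAK2 did not pass the test. JAK3, the kinase that pairs with the common gamma chain of lymphoid cytokine receptors, had 6.40, 11.0 and 8.40 normalized counts in KO, against 163, 180 and 214 in WT (log2 fold change −4.30, adjusted p = 1.9e-11). TYK2, the most abundant JAK kinase by normalized count, fell by 0.53 and JAK1 fell by 0.22. Among other STAT genes, STAT2 fell by 0.24 (adjusted p = 0.00037), and STAT6 (log2 fold change 0.01, adjusted p = 0.88) did not pass the test.

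The SOCS genes outside the set had log2 fold changes between −0.47 and 0.26. SOCS4, SOCS5 and SOCS7 fell, by 0.47, 0.32 and 0.45 on the log2 scale, and SOCS6 rose by 0.26 (adjusted p = 0.010), a call that was lost without KO3 (0.23, adjusted p = 0.054). Of 6 genes listed for the ubiquitin ligase that SOCS proteins assemble, 4 rose, and the remaining 2, CUL2 and RNF7, did not pass the test. ELOB, the elongin B that binds the SOCS box, had 8493 ± 58.9 normalized counts in KO and 4462 ± 223 in WT (SD, n = 3 each), a rise of 0.93 (adjusted p = 1.3e-12). Its partner ELOC rose by 0.57, the scaffold CUL5 by 0.71 and the RING protein RBX1 by 0.31.

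Of 11 further brakes on JAK and STAT, 8 fell, 1 rose, and PIAS1 and PTPN2 did not pass the test. SH2B3, the adaptor LNK that restrains JAK2 and cytokine receptors in blood progenitors, had 989 ± 30.1 normalized counts in KO and 3223 ± 181 in WT (log2 fold change −1.70, adjusted p = 2.3e-15). The phosphatase genes PTPRC (CD45) and PTPN6 (SHP-1) fell by 1.57 and 1.05, PTPN1 by 0.50 and PTPN11 by 0.23. CBL, a ubiquitin ligase of activated receptors, fell by 0.87 and PIAS4 by 0.26. The rise was that of PIAS2, at 0.55.

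Of 21 ligand genes only LIF, OSM and CNTF were listed in the table, and none passed limma's test (0 also at an unadjusted p under 0.05, and 0 by edgeR and by DESeq2). OSM, the most abundant, had 127 ± 8.3 normalized counts in KO and 109 ± 5.0 in WT (SD, n = 3 each), with every KO library above every WT library (log2 fold change 0.22, adjusted p = 0.17), and it passed in limma with no variance trend (adjusted p = 0.038). Of 24 receptor genes 17 were tested, of which 10 fell and 4 rose. IL10RA, the ligand-binding chain of the STAT3-activating IL-10 receptor, had 83.2 ± 3.6 normalized counts in KO and 474 ± 29.1 in WT (log2 fold change −2.49, adjusted p = 2.6e-13). CSF3R, the G-CSF receptor and the most abundant of these receptors by normalized count, fell by 0.22. The next genes were chosen after their values were seen. IL6ST (gp130, the shared chain of IL-6 type receptors) fell by 1.34. CSF2RB (the chain shared by the GM-CSF, IL-3 and IL-5 receptors) fell by 0.32. The remaining falls were those of IL21R (−2.29), IL3RA (−1.10), EPOR (−1.01), CSF2RA (−0.99), IL2RG (−0.89) and IL27RA (−0.66). The genes that rose were IL5RA, KIT, FLT3 and IL6R, by 1.96, 1.86, 0.89 and 0.47.

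Of 25 genes listed as targets of STAT3 or STAT5 other than the set itself, 23 were tested, and 17 fell, 3 rose and 3 did not pass. BCL3, an atypical IkB protein, had 295, 245 and 282 normalized counts in KO, against 2307, 2706 and 2497 in WT (log2 fold change −3.19, adjusted p = 3.7e-17). MYC, the most abundant target by normalized count, moved the other way, with 75991 ± 1043 in KO and 45268 ± 1027 in WT (SD, n = 3 each), a rise of 0.75 (adjusted p = 4.1e-11). Chosen after their values were seen, the fall was −2.47 for the angiogenic factor VEGFA, −1.96 for the myeloid transcription factor CEBPB and −1.87 for the cyclin CCND3, and −0.40 and −0.23 for the survival genes MCL1 and BCL2L1. Many of these genes are also targets of other factors. Among 13 genes whose proteins PIM kinases phosphorylate, 9 fell, 1 rose, which was again MYC, and 3 did not pass. The number that rose was 2 with TMM scaling, equal library totals, edgeR or an ordinary linear model, and without WT2. The number that fell was 8 by edgeR, by DESeq2, with TMM scaling, equal library totals, no variance trend or a replicate block. It was also 8 with a minimum mean of 50, at an adjusted p under 0.01, and without KO2, KO3, WT2 or WT3. With an ordinary linear model 7 fell. The cell cycle inhibitor CDKN1A (p21) had 16.4, 21.1 and 13.2 normalized counts in KO, against 246, 114 and 107 in WT, where WT1 stood above the others (log2 fold change −3.04, adjusted p = 2.1e-08). The list concerns mRNA levels and not phosphorylation.

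**Figure D4:**
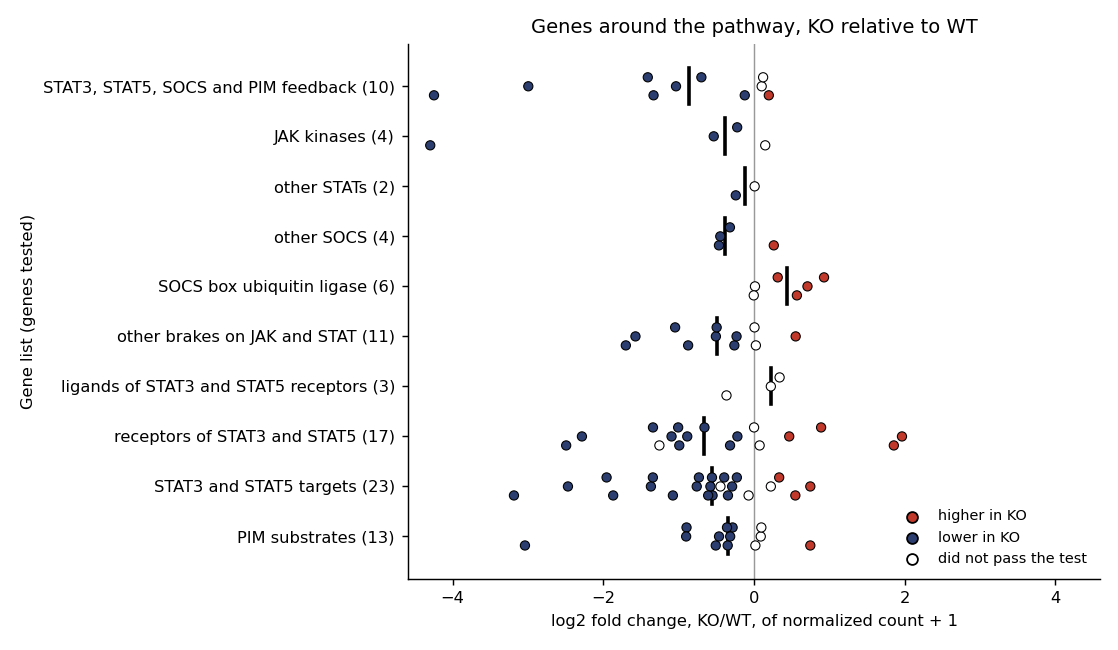
Log2 fold change (KO/WT) of each tested gene in the set and in 9 lists around it, with red points for genes higher in KO, blue for genes lower in KO, open points for genes that did not pass the test, and a black line at each list's median. The median is −0.87 for the set and 0.44 for the SOCS box ubiquitin ligase, and JAK3 and SOCS3 are the leftmost points.

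Markers of blood cell types moved in the same libraries. Of 10 myeloid progenitor genes 8 rose, among them PRTN3 by 4.14 and MPO by 0.92, SPI1 fell by 0.53 and CD33 did not pass the test. Their summed normalized counts were 1076400 to 1116460 in KO and 397483 to 422774 in WT. Of 7 monocyte genes tested, 2 rose and 2 fell, with log2 fold changes of −3.05 for CD14 and 1.65 for LYZ, and CD163 and MRC1 were not listed. Their sums were 20716 to 21243 in KO and 10416 to 10642 in WT, mostly from LYZ, and without it the other 6 genes summed to 1722 to 1862 in KO and 4351 to 4455 in WT. Of 7 T and NK cell markers 3 were tested, and their sums were 1283 to 1375 in KO and 3045 to 3636 in WT. CD3D, CD3G and CD2 were not listed, CD3E fell by 2.95, NKG7, which gave most of the sum, fell by 1.27, and CD247 rose by 1.05. Of 5 B cell markers 2 were tested, with sums of 238 to 253 in KO and 157 to 177 in WT, where CD79A rose by 0.69 and MS4A1 and PAX5 were not listed. Of 8 erythroid and megakaryocyte markers 3 were tested, with sums of 341 to 387 in KO and 144 to 152 in WT. ITGA2B rose by 2.70, GP9 fell by 2.43 (adjusted p = 0.00044, at a mean so low that it was not tested without WT1 or WT3) and KLF1 did not pass, and HBB and PF4 were not listed. The part of these changes in the values of the STAT, SOCS and PIM genes was not tested. Of the 8 fibroblast and epithelial genes tested, CDH1 fell by 4.01 and 7 did not pass. The number that fell, 1 here, was 3 by edgeR and 1 by DESeq2, 3 without KO2, WT2 or WT3, and 2 with a replicate block. WT1 stood apart in that list mostly through FN1 and COL1A1, and its KRT8 and KRT18 counts were also the highest of the WT libraries. Among the WT libraries it had the lowest CISH, SOCS1, SOCS3 and PIM3, the middle PIM1 and the highest SOCS2 count. Without WT1 and KO3 the calls of CISH, the SOCS genes, PIM1 and PIM3 were kept.

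For the 3 genes CISH, SOCS3 and PIM1, the genes with the most similar profile over the 6 libraries were sought among the 11301 genes whose mean normalized count reached 100, by the root mean square difference of log2 values centred on each gene's mean. PLIN2, a coat protein of lipid droplets, was nearest to CISH (difference 0.036), followed by DNHD1 and AC243964.3. FADS2, a fatty acid desaturase, was nearest to SOCS3 (0.17), followed by the glycine transporter SLC6A9 and the macrophage growth factor CSF1. ASB2, which itself encodes a SOCS box protein, was nearest to PIM1 (0.072), followed by the C5a receptor C5AR1 and the stress gene SESN2. With 2 groups the likeness mainly reflects fold changes of similar size, which were −4.21 for FADS2 and −3.05 for ASB2.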

How the data were processed

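RNA sequencing covered 3 libraries of akirin2 KO and 3 of WT HL60 cells. The submitters' processing notes name the build GRCh38 and the tools Trimmomatic 0.36, featureCounts, Subread 1.5.2 and DESeq2, while aligner and annotation were not given in the sources used here. Deposited signal values are normalized counts, for which the authors scaled each library's reads by its own size factor, and 100% of them were whole multiples of the value of 1 read (tolerance 0.01), from which reads were recovered. The deposited table also holds the authors' log2 fold changes, p-values and adjusted p-values, which were not used.

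On log2(normalized count + 1), groups were compared with limma 3.58.1 (lmFit, eBayes with trend) in R 4.3.3. Tests were two-sided and adjusted by Benjamini and Hochberg's method across 17425 genes of mean 10 or more, leaving out 74. Steps were tested on simulated data. Positions and exon lengths come from GENCODE 29. Alternatives were pseudocounts of 0.5 and 5, no minimum and a minimum mean of 50, TMM and equal library totals, edgeR 4.0.16 and DESeq2 1.42.0 on the recovered reads, no variance trend, an ordinary linear model, a replicate block, libraries left out, an adjusted p under 0.01, transcript length and a pseudocount of 5 for the pairs. Tables and figures were made in Python 3.11.15 with matplotlib 3.10.9, numpy 2.4.6 and pandas 2.3.3.

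The members and gene lists were chosen with earlier results of these data known. Named were the 10 members, AKIRIN2, the called gene with the largest change and that with the highest count of each list, JAK, STAT and SOCS genes and other direct regulators with a mean of at least 1000, and the 3 nearest profiles of CISH, SOCS3 and PIM1. Other genes are said to be chosen after their values were seen, or only complete a count. Some genes of these lists are not reported here.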

Additional observations from a re-analysis of the deposited data

How the results depend on the processing

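CISH, SOCS1, SOCS3, PIM1 and PIM3 kept their direction and call in all 19 alternatives, and SOCS2 in all 18 that could be run, since a minimum mean of 50 removed it. None of the 10 log2 fold changes changed its sign in these alternatives. On the recovered reads edgeR called 10611 genes and DESeq2 9860, against 10552 by limma. The small changes depended on the processing. The number of the 10 genes that rose, 1 in the report, was 2 with TMM scaling, 3 with equal library totals, 0 with no variance trend, 0 with an ordinary linear model and 0 at an adjusted p under 0.01, and 0 to 2 with 1 library left out. Equal library totals brought STAT3 (0.16) and PIM2 (0.18) past the threshold and took STAT5B (−0.065) below it, and TMM scaling brought PIM2 (0.14) past it. STAT5A (0.20) and STAT5B (−0.12) no longer passed with no variance trend or at an adjusted p under 0.01, STAT5A (0.20) did not with an ordinary linear model, and STAT5B (−0.13) did not without WT1 and KO3. With 1 library left out the log2 fold changes were 0.15 to 0.26 for STAT5A, −0.14 to −0.11 for STAT5B, 0.084 to 0.17 for PIM2 and 0.04 to 0.15 for STAT3. The cause was not tested. TMM scaling shifted the median of all genes by 0.02 and equal library totals by 0.06. Libraries with the same number did not deviate together (correlations −0.07, 0.05 and −0.08 for numbers 1, 2 and 3). With 3 libraries a group this does not show whether libraries of the same number were handled together. With a replicate block 8 of the 10 genes and 10394 genes in all were called, against 8 and 10552 without it. Depth limits SOCS2 most, with 42 reads in KO and 123 in WT, and then SOCS3, with 57 reads in KO.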
